A study of Mus musculus with 24 samples.

Results

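The transcripts examined here are those of the matrix metalloproteinases (MMPs), their tissue inhibitors (TIMPs), the ADAM and ADAMTS metalloproteinases and the ADAMTS-like proteins, measured in mouse livers after an MCD or a control diet. Members were chosen by gene symbol alone. The patterns were Mmp followed by a number, Timp1 to Timp4, Adam followed by a number, Adamts followed by a number and Adamtsl followed by a number, with an a or b ending allowed for Mmp and Adam. Of 56205 gene rows in the count table, 84 matched: 33 Adam, 23 Mmp, 19 Adamts, 5 Adamtsl and 4 Timp genes. A filter on low counts kept 46 of them among 14109 genes tested, and the other 38 were not tested. RNA-Seq of poly(A) RNA from whole liver was performed on 24 C57BL/6J mice. Of these, 12 had received the methionine-choline deficient (MCD) diet and 12 the control diet named for it, for 20 weeks. That both males and females were used is stated for the C57BL/6J experiments in general. Per the methods the deficient diet was also rich in fat, and elsewhere the study calls the model a choline-deficient high-fat diet. Such diets are common models of steatohepatitis with fibrosis in mice. The animals carried no transgene or engineered allele according to the labels, and the age of these mice was not given in the sources used here. The labels gave no sex, litter or batch for a single library, so each diet was treated as 1 group of 12. The series belongs to a study of collagen production in liver fibrosis, and the comparison made here is the one its design allows, MCD against control.

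MMPs are zinc-dependent endopeptidases that are made as inactive precursors, held latent by a cysteine in their prodomain, and that together can cleave most proteins of the extracellular matrix. TIMPs bind the active site of MMPs and block it, and Timp3 also blocks several ADAM and ADAMTS enzymes. ADAM proteins span the cell membrane and release the outer part of other membrane proteins, while ADAMTS enzymes are secreted and act on procollagens, proteoglycans and von Willebrand factor. In fibrotic liver, hepatic stellate cells, myofibroblasts, macrophages and bile duct epithelium are known sources of these enzymes and inhibitors.

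Total counts ran from 16388650 to 24915175 per library, and 0 pairs of libraries held identical values. Levels are given as CPM, read counts divided by library sizes that were scaled with the trimmed mean of M values (TMM), and 3 counts, taken as the lowest level resolved, corresponded to 0.109 to 0.227 CPM depending on the library. TMM factors did not overlap between the diets, with 0.642 to 0.973 in control and 1.07 to 1.26 in MCD libraries. Control replicate 12 stood apart, with a median correlation of 0.918 with the other control libraries against 0.952 to 0.968 for the rest. A gene was called higher or lower in MCD when edgeR's quasi-likelihood test gave a Benjamini-Hochberg adjusted p (FDR, over all 14109 genes) of 0.01 or less and the absolute log2 fold change exceeded 0.5. In bulk tissue, more cells of a type and more RNA per cell cannot be told apart, and this holds for each difference below. Whether reads were counted by strand is not given in the sources used here. Beside the overlaps given with single genes, exons of Mmp11, Mmp12, Mmp24, Mmp28, Adam8, Adam17, Adam19, Adamts4, Adamts7 and Adamts9 lie across exons of an antisense neighbour. In the same orientation Adam1a shares 4779 exon bases with Gm42878 and 1805 with Mapkapk5. Reads of all these members may thus include some of their neighbours, and how reads in shared bases were assigned is not given either.

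Most tested members were more abundant in MCD livers. By the call above, 29 of the 46 were higher (63.0%), while 19.2% of all genes tested were higher. Only 3 members were lower (6.52%), namely Adamts13, Mmp19 and Adam9, while 19.1% of all genes were lower. The remaining 14 members did not pass the threshold. The median log2 fold change was 1.27 over the 46 members (quartiles 0.30 and 2.10) and -0.10 over all genes (quartiles -0.43 and 0.35). In 18 members every MCD library lay above every control library, which was so for 9.5% of all genes, and in 2 members every MCD library lay below every control library, against 4.88% of all genes. These shares are descriptions, since the low-count filter passed some members only with the help of the MCD libraries. It asked for 0.510 CPM or more in 12 libraries, here by total counts without TMM scaling, unlike the CPM values given elsewhere. Of the tested members, 21 did not reach that in all 12 control libraries, and 13 of these were called higher and 0 lower. Among the 25 that did reach it in all 12 control libraries, 16 were called higher and 3 lower. The counts of 29 and 3 were the same without control replicate 12.

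**Figure D1:**
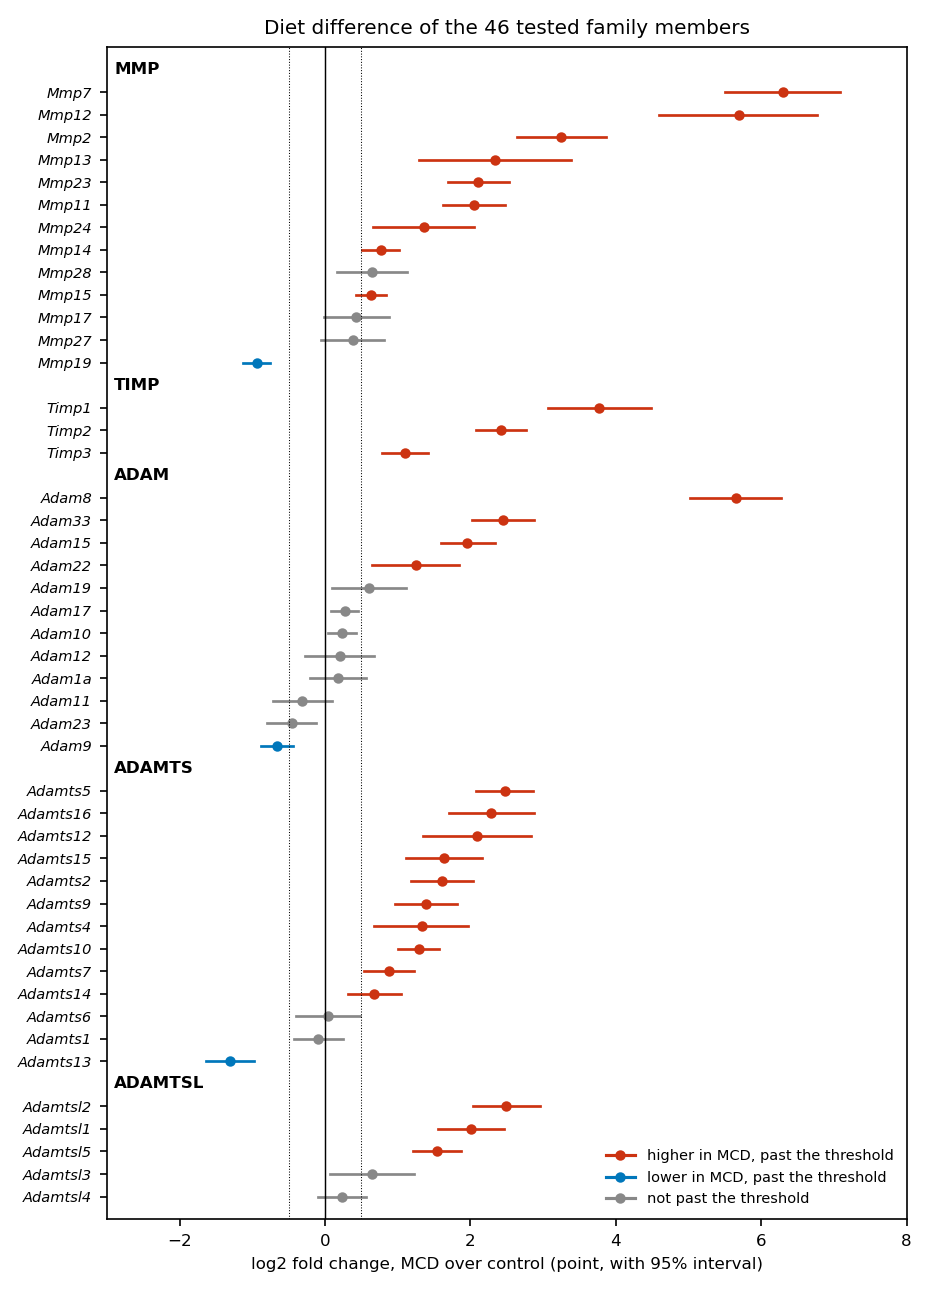
Difference between the diets for the 46 tested members, as log2 fold change of MCD over control on the x axis with its 95% interval, ordered by size within each family. Dotted lines mark the limit of 0.5 on either side of 0. Mmp7, Mmp12 and Adam8 lie furthest to the right, beyond 5, and the 3 members in blue on the left are Mmp19, Adam9 and Adamts13.

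Among the MMPs, 9 of 13 tested members were higher, 1 was lower and 3 did not pass, where 19.2% of all genes were higher and 19.1% lower. The greatest change belonged to Mmp7, matrilysin, a small secreted MMP that epithelial cells make. Control libraries held 0 to 1.70 CPM with a median of 0.448, and MCD libraries 15.4 to 72.9 CPM with a median of 34.8. The diets did not overlap. The log2 fold change was 6.30 (SE 0.39, 95% interval 5.50 to 7.09, FDR 1.18e-12), or 78.6-fold, against a control level that rested on 101 reads in all 12 libraries. Exons of Mmp7 share 123 bases with a gene on the opposite strand, AV064505.

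Mmp12, macrophage elastase, had the second largest change. It ranged from 0.477 to 15.8 CPM in control (median 1.94) and from 161 to 415 CPM in MCD (median 241), again without overlap. The log2 fold change was 5.69 (SE 0.53, FDR 9.38e-10). Control livers were uneven for this gene. Replicates 4, 8 and 11 held 279, 228 and 280 reads, and the other 9 control libraries held 7 to 84. Every MCD library had at least 4046 reads.

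Mmp13, the main interstitial collagenase of mice and rats, also rose but remained scarce. Its control values ran from 0 to 3.05 CPM (median 0.201) and its MCD values from 1.23 to 7.31 CPM (median 3.5). Here the diets overlapped: 8 of 12 MCD libraries lay above every control library. The log2 fold change was 2.34 (SE 0.51, FDR 0.000272). The same control replicates 4, 8 and 11 held the most Mmp13 reads in that diet, 42, 23 and 68 against 0 to 9 in the others.

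Mmp7, Mmp12 and Mmp13 lie in a cluster of 10 MMP genes on chromosome 9 (chr9:7272514-7699585, GRCm38, the mm10 build that the submitters' processing notes name). In order along the chromosome the genes are Mmp13, Mmp12, Mmp1b, Mmp3, Mmp1a, Mmp10, Mmp8, Mmp27, Mmp20 and Mmp7. Of these, 4 passed the filter, and the fourth, Mmp27, had a median of 0.741 CPM in control and 1.23 CPM in MCD, with a log2 fold change of 0.38 (SE 0.21, FDR 0.126) that did not pass. Promoters of several MMP genes are known to carry a site for AP-1, the Fos and Jun family of transcription factors, which prefers TGACTCA or, read on the other strand, TGAGTCA. The letters searched were TGANTCA, with any base in the middle, a 7-base motif that is its own reverse complement, so that both strands were covered at once, in the 250 bases before each RefSeq gene start (GRCm38.p6). The letters were present for 8 of the 10 cluster genes and for 0 of the 8 other MMP genes that have a promoter in the RefSeq table, whereas 7.82% of all genes and 6.75% of all promoters held them. With C or G in the middle the count was 7 of 10, without Mmp20, against 5.16% of all genes. These promoters are printed here, 25 bases on either side of the motif, read 5′ to 3′ on the strand of the gene with the motif in capitals, because Mmp7, Mmp12 and Mmp13 are among these genes.
Mmp13 (chr9:7272454-7272510, plus strand): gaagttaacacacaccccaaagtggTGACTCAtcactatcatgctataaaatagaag
Mmp12 (chr9:7347305-7347361, plus strand): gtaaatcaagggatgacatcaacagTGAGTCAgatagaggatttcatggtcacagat
Mmp1b (chr9:7388088-7388144, minus strand): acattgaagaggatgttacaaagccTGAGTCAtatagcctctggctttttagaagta
Mmp3 (chr9:7445751-7445807, plus strand): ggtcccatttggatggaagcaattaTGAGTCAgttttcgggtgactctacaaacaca
Mmp1a (chr9:7464043-7464099, plus strand): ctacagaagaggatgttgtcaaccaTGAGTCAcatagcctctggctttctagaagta
Mmp10 (chr9:7502254-7502310, plus strand): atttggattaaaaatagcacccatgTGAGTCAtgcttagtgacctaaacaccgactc
Mmp20 (chr9:7628111-7628167, plus strand): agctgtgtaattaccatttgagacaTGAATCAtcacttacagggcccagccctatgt
Mmp7 (chr9:7692002-7692058, plus strand): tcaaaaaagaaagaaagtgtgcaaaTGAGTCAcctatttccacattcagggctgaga
The motif began 35 bases before the start in Mmp13, 44 in Mmp12, 46 in Mmp3, 63 in Mmp7 and Mmp10, 73 in Mmp1a, 93 in Mmp1b and 95 in Mmp20. Mmp8 and Mmp27 had no such letters in this window. For Mmp12 and Mmp7 RefSeq lists a further start whose window lacks them. Outside the MMPs they were found for 4 of 17 ADAM genes (Adam19, Adam20, Adam25 and Adam29) and for 0 of 4 TIMP, 0 of 10 ADAMTS and 0 of 4 ADAMTSL genes. Among tested members with a promoter in the table, 3 of 20 that were higher held the letters, 1 of 10 that did not pass and 0 of 1 that was lower. A match of letters does not show that a factor binds there.

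Mmp2, gelatinase A, which stellate cells and fibroblasts secrete and which cleaves denatured and basement membrane collagen, was the third MMP by size of change. It ran from 2.28 to 20.0 CPM in control (median 4.46) and from 40.2 to 130.1 CPM in MCD (median 55.5). All MCD libraries exceeded all control libraries, and the log2 fold change was 3.25 (SE 0.30, 95% interval 2.64 to 3.86, FDR 7.35e-10). Mmp14, the membrane-anchored MMP that activates the Mmp2 precursor at the cell surface, rose far less. Its levels were 35.98 to 88.2 CPM in control (median 53.1) and 83.2 to 118.9 CPM in MCD (median 95.5), with 10 of 12 MCD libraries above every control library. The log2 fold change was 0.77 (SE 0.12, FDR 7.21e-06).

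Of the other membrane-type MMPs, Mmp15, Mmp24 and Mmp17 passed the filter. Mmp15 had 68.9 to 128.1 CPM in control (median 100.4) and 125 to 194 CPM in MCD (median 152), a log2 fold change of 0.63 (SE 0.10, FDR 5.41e-06) with 11 of 12 MCD libraries above all controls. Mmp24, better known from neurons, had medians of 0.557 and 1.46 CPM and a log2 fold change of 1.36 (SE 0.34, FDR 0.00107), and the diets overlapped. Mmp17, which a lipid anchor holds at the surface, had medians of 0.924 and 1.24 CPM and did not pass (log2 fold change 0.43, SE 0.22, FDR 0.0857).

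Stromelysin 3, Mmp11, which is processed inside the cell by furin and acts on few matrix proteins, rose from 0.233 to 1.24 CPM in control (median 0.964) to 2.20 to 7.19 CPM in MCD (median 3.31). The log2 fold change was 2.05 (SE 0.21, FDR 4.95e-09) and the diets did not overlap. Mmp23, an MMP with an unusual N-terminal anchor, ran from 0.930 to 5.15 CPM (median 2.29) and from 7.39 to 14.3 CPM (median 9.54), also without overlap (log2 fold change 2.11, SE 0.21, FDR 2.20e-09). Mmp28, epilysin, had medians of 0.576 and 0.876 CPM and a log2 fold change of 0.65 (SE 0.23) that missed the FDR limit at 0.0170.

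Mmp19 was the MMP that fell. Its protein cleaves several matrix and basement membrane components. Control libraries held 40.4 to 65.8 CPM (median 50.2) and MCD libraries 20.8 to 34.0 CPM (median 25.5). All 12 MCD libraries lay below all control libraries, and the log2 fold change was -0.94 (SE 0.09, 95% interval -1.13 to -0.76, FDR 1.19e-09). Exons of Mmp19 overlap 789 bases of Tmem198b on the opposite strand.

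The remaining 10 MMP genes did not reach the filter. Mmp1a, Mmp1b and Mmp20 had 0 reads in all 24 libraries, and Mmp21 had 4 reads in control and 0 in MCD. Mmp8, the collagenase stored in neutrophil granules, had 0 to 7 reads per control library and 9 to 28 per MCD library. Those ranges did not overlap, and the totals were 20 and 171 reads. Mmp25, a membrane-type MMP of leukocytes, totalled 16 and 103 reads, and Mmp3, stromelysin 1, totalled 18 and 110.

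Mmp9, gelatinase B, the second gelatinase and a product of neutrophils and macrophages, had 1 to 13 reads per control library and 7 to 37 per MCD library. Its totals were 61 and 193 reads, while Mmp2, whose coding transcript is of similar length, had 1447 and 18787. Mmp10 was found in 1 control and 8 MCD libraries, with at most 6 reads in any library, and Mmp16 had 4 reads in control and 18 in MCD. When all genes with a read were tested without the filter, Mmp8 (log2 fold change 2.62, FDR 1.18e-06), Mmp25 (2.18), Mmp3 (2.10) and Mmp10 (2.93) were called higher and Mmp9 was not (1.22, FDR 0.0129). Of the 8 neutrophil markers listed for this purpose, 3 passed the filter (S100a8, S100a9 and Csf3r), and all 3 were higher. The summed level of the 8 ran from 2.30 to 7.95 CPM in control and from 12.8 to 42.3 CPM in MCD, and its part in the Mmp8, Mmp9 and Mmp25 values was not tested.

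**Figure D2:**
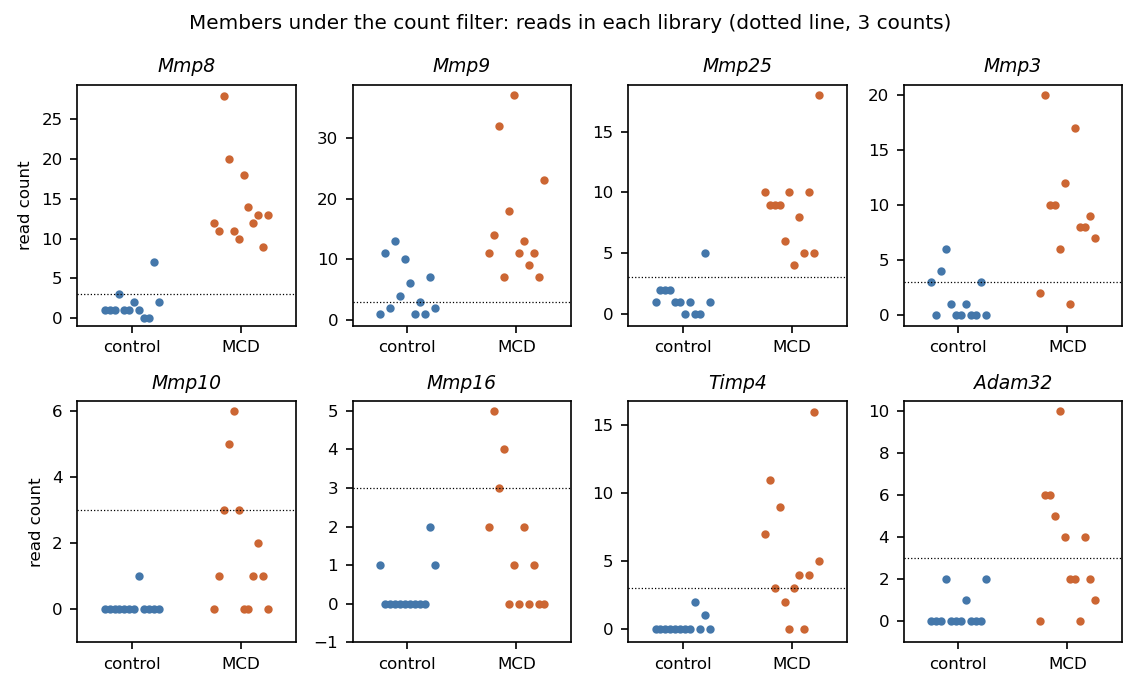
Read counts per library (y axis) for 8 members that did not pass the low-count filter, with the 12 control libraries in blue and the 12 MCD libraries in orange, and a dotted line at 3 counts. Mmp8 is the gene whose MCD libraries, at 9 to 28 reads, all lie above the control libraries, at 0 to 7.

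All 3 TIMPs that passed the filter were higher in MCD (19.2% of all genes were). In each of them every MCD library lay above every control library (9.5% of all genes). Timp1 reached the filter level in 5 of 12 control libraries and in all 12 MCD libraries. Timp1, an inducible inhibitor known to rise in fibrotic liver, was scarce in control livers at 0 to 2.04 CPM (median 0.430). MCD livers held 8.20 to 15.8 CPM (median 11.04), and the log2 fold change was 3.77 (SE 0.34, 95% interval 3.07 to 4.48, FDR 6.49e-10), or 13.7-fold. Timp2, which also takes part in activating the Mmp2 precursor on Mmp14, ran from 13.9 to 43.8 CPM in control (median 23.9) and from 102 to 200.4 CPM in MCD (median 127). Its log2 fold change was 2.42 (SE 0.17, FDR 5.21e-12).

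Timp3, the inhibitor that binds to the matrix, changed least of the 3. Control libraries held 13.8 to 51.7 CPM (median 35.8) and MCD libraries 57.5 to 100.2 CPM (median 74.6), a log2 fold change of 1.10 (SE 0.15, FDR 6.86e-07). The lowest control value was that of replicate 12, and without that library the log2 fold change was 1.06. Timp3 exons share 1733 bases with Syn3 on the opposite strand. Timp4 did not pass the filter and had 3 reads in control and 64 in MCD, spread over 10 of 12 MCD libraries. In the test without the filter it was called higher (log2 fold change 3.57, FDR 0.000186).

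**Figure D3:**
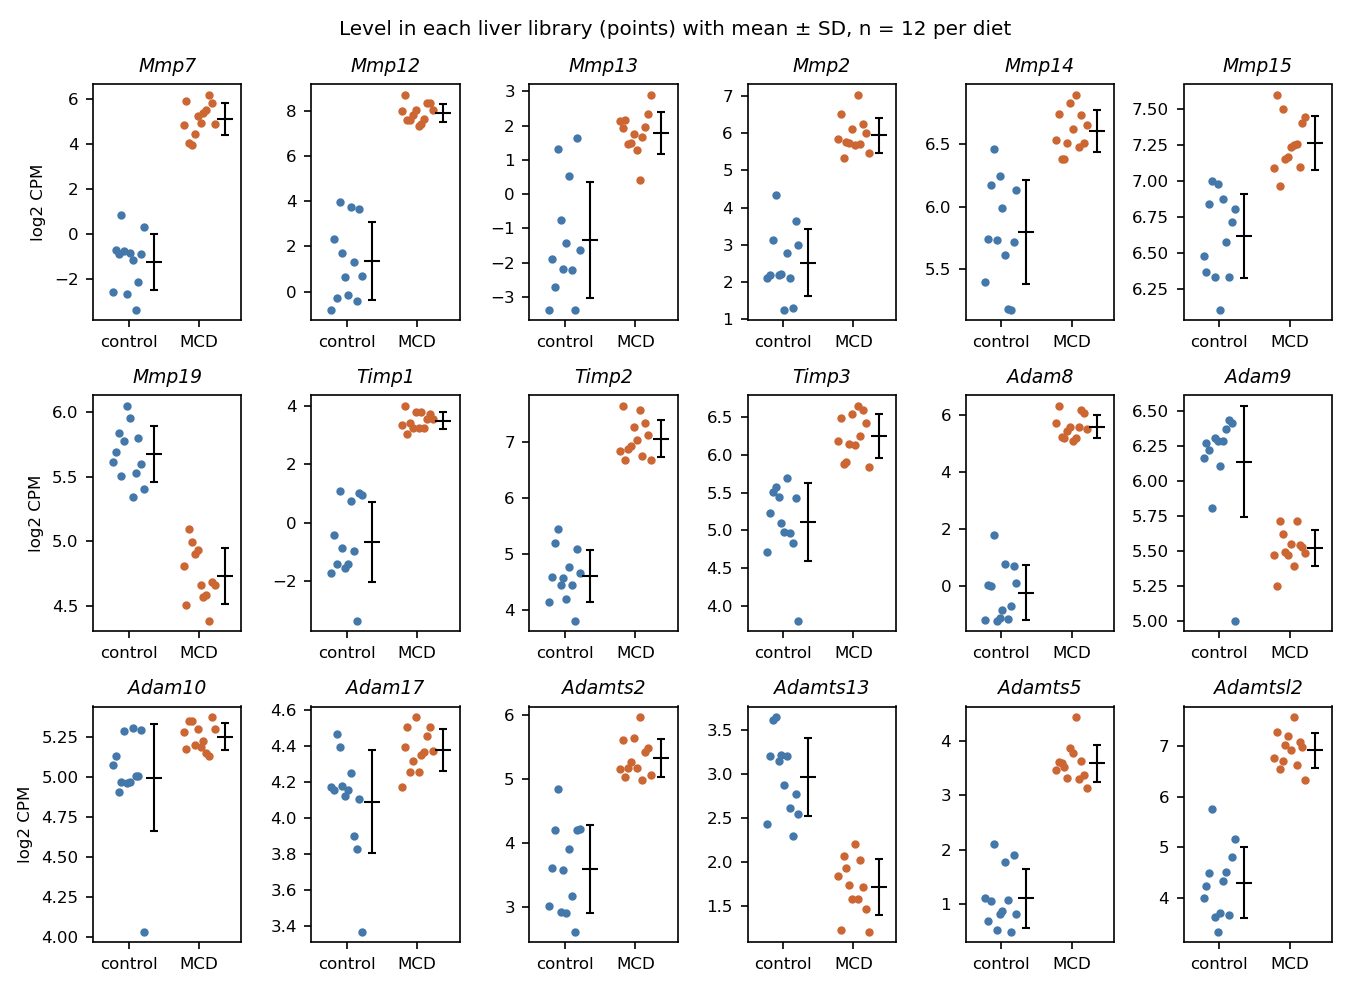
Level of 18 members in each library as log2 CPM (a prior count of 2 was added before the logarithm), with 12 control libraries in blue, 12 MCD libraries in orange and the mean with SD beside them. Each panel has its own y axis. Mmp19 and Adamts13 lie lower in all MCD libraries, Adam10 and Adam17 overlap between diets, and control replicate 12 is the lowest control point of Timp3, Adam9, Adam10 and Adam17.

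To compare members with each other, CPM was divided by the length of the longest coding transcript in kilobases. On this scale the control liver was led by Mmp15 at 19.5, Mmp14 at 17.8 and Mmp19 at 15.1 CPM per kb, and Mmp2 followed at 2.22. The order differed in MCD livers, where Mmp12 came to 69.3 CPM per kb, Mmp7 to 36.2, Mmp14 to 30.3, Mmp15 to 30.2, Mmp2 to 21.2 and Mmp19 to 7.87. On this scale Mmp14 and Mmp15 did not differ beyond their spread in either diet. Summed over all Mmp rows, the level was 59.8 ± 11.01 CPM per kb in control (SD, n = 12, range 46.3 to 83.5) and 207 ± 42.7 in MCD (range 153 to 295). Mmp12 made up 2.07% of that sum in control and 33.1% in MCD, and Mmp7 0.701% and 16.8%. The share of Mmp15 was 32.7% in control and 15.0% in MCD, and that of Mmp19 26.0% and 4.02%.

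The 4 TIMP rows summed to 15.5 ± 4.59 CPM per kb in control (SD, n = 12) and 66.4 ± 14.1 in MCD. Timp3 made up 49.9% ± 9.68 of the sum in control and Timp2 44.5% ± 5.94, with Timp3 above Timp2 in 8 of 12 control libraries. In MCD Timp2 made up 55.5% and lay above Timp3 in all 12 libraries. Timp1 went from 5.55% to 19.6%. The ratio of summed TIMP to summed MMP was 0.258 ± 0.051 in control (range 0.182 to 0.332) and 0.322 ± 0.039 in MCD (range 0.265 to 0.404), so the diets overlapped in it. When length was instead the sum of all annotated exons, the ratio ran from 0.180 to 0.312 in control and from 0.324 to 0.458 in MCD, without overlap, and the Mmp12 share in MCD was 22.6%. By that length Mmp7 stood at 36.2 and Mmp12 at 34.5 CPM per kb in MCD, so their order changed. Mmp14 fell to 9.67 in control, below Mmp15 at 18.6 and Mmp19 at 14.6, and to 16.4 in MCD, below Mmp15 at 28.7 and Mmp2 at 19.3. Timp2 then led in control too, with 6.58 CPM per kb against 4.44 for Timp3. The ratio and the order of members with close levels thus depended on the length used.

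**Figure D4:**
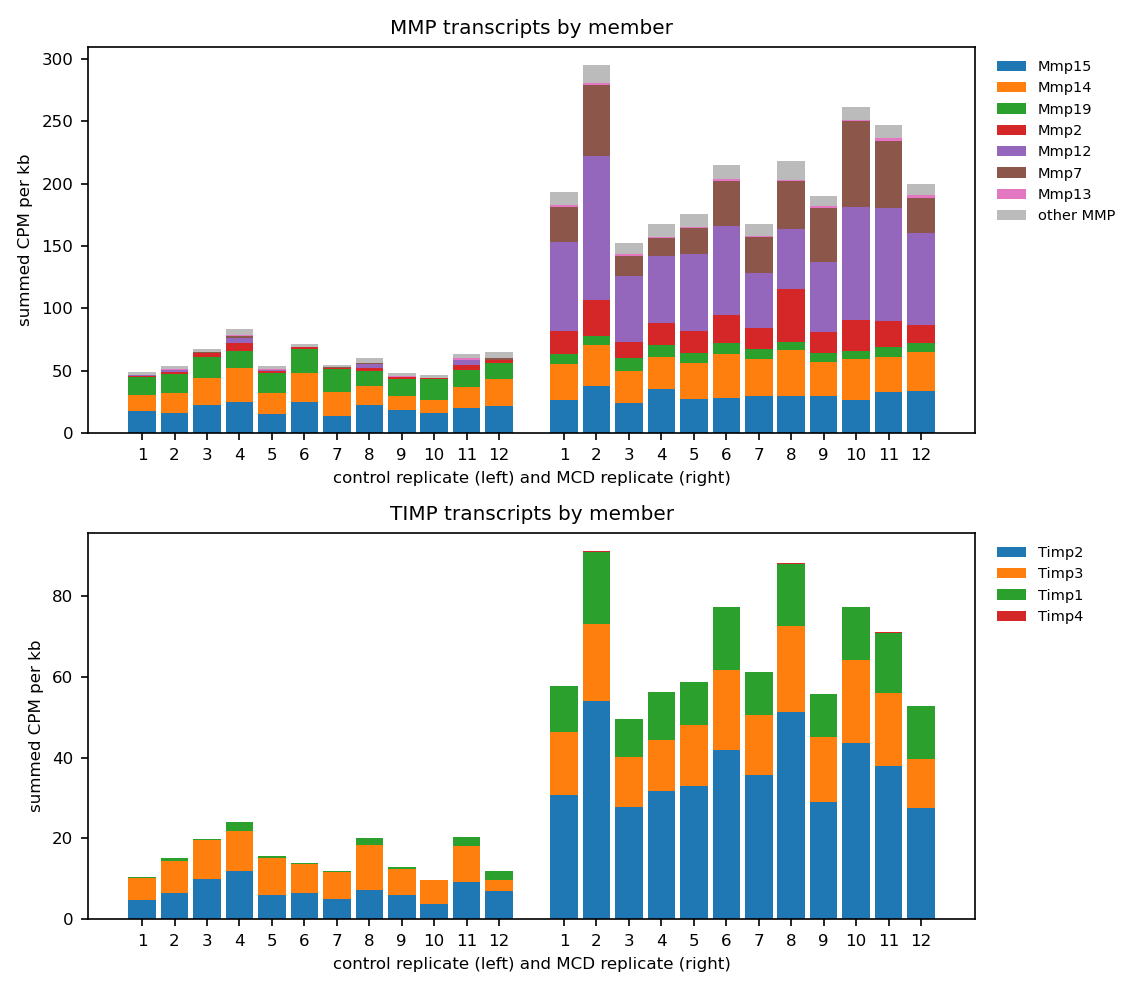
Make-up of the MMP transcripts (top) and TIMP transcripts (bottom) in each library, as stacked CPM per kb of the longest coding transcript, with control replicates 1 to 12 on the left and MCD replicates 1 to 12 on the right. The MMP sum runs from 46.3 to 83.5 in control and from 153 to 295 in MCD, and Mmp12 and Mmp7 fill much of the added height.

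Of 12 tested ADAM members, 4 were higher, 1 was lower and 7 did not pass, against 19.2% higher and 19.1% lower over all genes. Adam8, a sheddase of myeloid cells, had the third largest change of all 46 members, close to that of Mmp12. It ran from 0.335 to 3.39 CPM in control (median 0.708) and from 34.0 to 78.9 CPM in MCD (median 46.9), without overlap, and the log2 fold change was 5.65 (SE 0.31, 95% interval 5.02 to 6.27, FDR 1.75e-13). Without control replicate 12 the order turned, with 5.68 for Adam8 and 5.64 for Mmp12, and without replicate 4 each was at 6.01. Adam33, an ADAM of mesenchymal cells, had medians of 2.35 and 10.8 CPM, also without overlap (log2 fold change 2.45, SE 0.21, FDR 1.98e-10). Adam15 had medians of 6.63 and 24.4 CPM and did not overlap either (log2 fold change 1.96, SE 0.18, FDR 1.05e-09), although its exons overlap a gene on the opposite strand.

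Adam10 and Adam17, the principal sheddases of Notch, cadherins, TNF and EGF receptor ligands, stayed close to their control levels. Adam10 ran from 16.3 to 39.6 CPM in control and from 35.0 to 41.4 CPM in MCD, with a log2 fold change of 0.23 (SE 0.09, 95% interval 0.04 to 0.42, FDR 0.0341). Adam17 ran from 10.2 to 22.01 CPM and from 17.9 to 23.5 CPM, with a log2 fold change of 0.27 (SE 0.09, 95% interval 0.08 to 0.45, FDR 0.0108). Both intervals lay above 0 and below the log2 limit of 0.5. Scaled by total counts alone, which moved the median of all genes by 0.37, both were called higher, at 0.57 and 0.61. Adam9, another widely expressed sheddase, was lower, from a median of 77.8 CPM in control to 45.6 CPM in MCD (log2 fold change -0.66, SE 0.11, FDR 7.97e-06). Control replicate 12 was lower for Adam9 than every MCD library, at 31.9 CPM. Without that library the log2 fold change was -0.70 (FDR 1.34e-09).

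Adam11, Adam22 and Adam23 lack the zinc-binding residues and act as adhesion or scaffold proteins rather than proteases. Adam22 was higher at very low levels, with medians of 0.398 and 0.797 CPM (log2 fold change 1.25, SE 0.29, FDR 0.000607). Adam23 (log2 fold change -0.46, FDR 0.0170) and Adam11 (-0.31, FDR 0.176) did not pass. Adam19 (0.60, FDR 0.0351), Adam12 (0.20, FDR 0.464) and Adam1a (0.18, FDR 0.424) also did not pass, and all had medians under 2 CPM. Of the 21 ADAM genes that were not tested, Adam28 and 10 others had 0 reads in every library, and the highest total was that of Adam4, with 41 reads in control and 92 in MCD. Adam32, with 5 and 42 reads, was called higher in the test without the filter (log2 fold change 2.29).

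Among secreted ADAMTS enzymes, 10 of 13 tested members were higher (19.2% of all genes), 1 was lower (19.1% of all genes) and 2 did not pass. Adamts2, which removes the N-terminal propeptide of fibrillar procollagens, was higher in MCD. It ran from 6.05 to 28.6 CPM in control (median 11.99) and from 31.5 to 62.1 CPM in MCD (median 37.1), without overlap (log2 fold change 1.61, SE 0.20, FDR 1.66e-07). Adamts14, a second procollagen N-proteinase, had medians of 2.28 and 3.87 CPM and a smaller difference (log2 fold change 0.68, SE 0.18, FDR 0.00179). The third, Adamts3, did not reach the filter, with 30 reads in control and 43 in MCD.

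The proteoglycan-degrading group had 5 tested members, of which 4 were higher and 0 lower, against 19.2% and 19.1% of all genes. Adamts5, an aggrecanase, changed most, from 1.301 to 4.19 CPM in control (median 1.84) to 8.72 to 21.7 CPM in MCD (median 11.7), without overlap (log2 fold change 2.47, SE 0.19, FDR 3.29e-11). Adamts15 (log2 fold change 1.64, SE 0.25, FDR 3.75e-06), Adamts9 (1.39, SE 0.21, FDR 1.79e-06) and Adamts4 (1.33, SE 0.31, FDR 0.000633) were higher as well. Only in Adamts9 of these 3 did the diets not overlap. Adamts4 had a control median of 0.172 CPM, close to the resolved limit. Adamts1 stayed level, with medians of 11.02 and 11.5 CPM (log2 fold change -0.09, 95% interval -0.43 to 0.25, FDR 0.641).

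Of the other ADAMTS genes, Adamts16 (log2 fold change 2.29, SE 0.29, FDR 1.38e-07) and Adamts12 (2.09, SE 0.36, FDR 1.67e-05) rose from control medians of 0.228 and 0.270 CPM, with 11 and 10 of 12 MCD libraries above every control library. Adamts10, which binds fibrillin microfibrils, had medians of 12.7 and 31.9 CPM without overlap (log2 fold change 1.29, SE 0.14, FDR 9.59e-09). Adamts7 was higher too (0.88, SE 0.17, FDR 5.91e-05), and Adamts6 was not past the threshold (0.04, FDR 0.878). Adamts13, the protease of von Willebrand factor, which hepatic stellate cells are known to supply to plasma, was the ADAMTS that fell. It ran from 4.82 to 12.4 CPM in control (median 8.04) and from 2.22 to 4.53 CPM in MCD (median 3.21). All MCD libraries lay below all control libraries, and the log2 fold change was -1.31 (SE 0.16, 95% interval -1.63 to -0.98, FDR 7.90e-08). Adamts18 and Adamts19 had 0 reads in all libraries, and Adamts8, Adamts17 and Adamts20 had 16, 18 and 2 reads in control and 28, 14 and 1 in MCD.

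ADAMTS-like proteins resemble the non-catalytic part of ADAMTS enzymes, have no protease domain and associate with microfibrils. All 5 passed the filter, and 3 were higher and 0 lower, beside 19.2% and 19.1% of all genes. Adamtsl2, which binds the latent TGF-β binding protein, had the highest level per length of the 5, at 6.12 CPM per kb in control and 34.5 in MCD, or from 9.96 to 54.2 CPM in control (median 19.4) to 80.5 to 191 CPM in MCD (median 124). Its log2 fold change was 2.49 (SE 0.23, FDR 6.74e-10). Adamtsl1 (2.01, SE 0.22, FDR 1.63e-08) and Adamtsl5 (1.54, SE 0.16, FDR 5.57e-09) also separated the diets, and Adamtsl3 (0.65, FDR 0.0458) and Adamtsl4 (0.24, FDR 0.204) did not pass.

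Genes that act with these proteases were taken from lists written beside the member rule. Among 22 tested regulators and partners, 8 were higher and 7 lower, with a median log2 fold change of -0.12. These and the list counts that follow are to be read against the 19.2% of all genes that were higher, the 19.1% that were lower and their median of -0.10. The plasminogen activators and the urokinase receptor rose, with log2 fold changes of 3.35 for Plaur, 3.12 for Plat and 2.26 for Plau. Plasminogen itself (Plg, -0.58) was lower, as were the protease inhibitor Tfpi2 (-1.32), the proprotein convertases Pcsk5 (-1.01), Pcsk6 (-0.89) and Furin (-0.58), the α2-macroglobulin relative Pzp (-0.84) and the membrane-bound MMP inhibitor Reck (-0.64). Both iRhoms, which carry Adam17 to the surface, were higher, with log2 fold changes of 1.22 for Rhbdf1 and 0.65 for Rhbdf2.

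Known substrates moved in both directions. Of 17 tested proteins shed by Adam10 or Adam17, 8 were higher and 5 lower (median log2 fold change 0.04). The membrane-bound chemokines Cx3cl1 (3.51) and Cxcl16 (1.78), Tnf (2.79) and E-cadherin (Cdh1, 1.62) led those that were higher, and Cdh2 (-0.85), Notch1 (-0.82), Egf (-0.74) and Met (-0.62) those that were lower. Of 10 tested ADAMTS substrates 7 were higher and 1 lower (median 1.45). Versican (Vcan, 2.98), Col1a1 (2.88), Col1a2 (2.34) and Col3a1 (2.11) rose, and fibronectin (Fn1, -0.90), most of which hepatocytes make for plasma, fell. Among 13 tested genes of a list of other matrix enzymes 8 were higher and 3 lower (median 1.08). Cathepsin K (Ctsk, 3.78) and cathepsin S (Ctss, 3.14) had the largest log2 fold changes. The 8 included 2 that are not proteases, the procollagen C-proteinase enhancer Pcolce (1.10) and heparanase (Hpse, 1.08). Those that were lower were Mme (-0.84), Dpp4 (-0.74) and the procollagen C-proteinase Bmp1 (-0.55).

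Markers of the cell types that express these members also differed between the diets. The 8 macrophage markers were all higher, and their sum ran from 87.6 to 240.4 CPM in control and from 823 to 1669 CPM in MCD. All 6 cholangiocyte markers were higher (4.23 to 17.3 CPM against 45.8 to 110.4 CPM). Of 8 mesenchymal markers 6 were higher and Lrat was lower (174 to 434 CPM against 535 to 907 CPM), and of 6 lymphocyte markers 3 were higher. All 5 Kupffer cell markers and 5 of 6 endothelial markers were lower. The hepatocyte markers were present in every library, with Alb and Ttr lower and the other 4 not past the threshold, and no marker on any list was at 0 throughout. The part of these cell types in the changes of Mmp12 and Adam8, Mmp7, Mmp2 and the TIMPs, or Adamts13 was not tested.

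Control livers were not uniform for the members that rose. In 16 of the 29, control replicate 4 held the highest control value, among them Mmp12 (15.8 CPM), Mmp2 (20.0 CPM) and Timp1 (2.04 CPM). Replicate 3 was highest for 4 members and replicate 8 for 3. Leaving out control replicate 4 gave log2 fold changes of 6.01 for Mmp12, 3.53 for Mmp2, 3.98 for Timp1 and 1.77 for Adamts2, each larger than with it, and the member counts remained 29 and 3.

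This spread within each diet allowed 6 pairs of transcripts with a textbook relation to be compared across the 12 libraries of a diet, 12 relations in all. Pearson r and Spearman rho were computed on log2 CPM and tested by two-sided permutation with 100000 resamples, with Benjamini-Hochberg adjustment over the 12, and a relation passed at an adjusted p of 0.05 or less. Mmp2 and Timp2, which meet on Mmp14 at the cell surface, followed each other closely in control (r = 0.932, permutation p = 4e-05, adjusted 0.00015, rho = 0.930, p = 1e-05, adjusted 0.00012) and in MCD (r = 0.922, permutation p = 2e-05, adjusted 0.00012, rho = 0.888, p = 0.0003, adjusted 0.0009). The value of 1e-05 is the smallest the resamples can give. After leaving out the 2 libraries with the most extreme Mmp2 levels, r was 0.876 and 0.908. Mmp2 and Mmp14 were less close, with r = 0.554 in control (permutation p = 0.0614, adjusted 0.0670, rho = 0.573, p = 0.0553, adjusted 0.0603) and r = 0.769 in MCD (permutation p = 0.00271, adjusted 0.00406, rho = 0.678, p = 0.0186, adjusted 0.0229). Without the 2 farthest libraries the MCD value was 0.585 and no longer passed (adjusted permutation p = 0.1), and the control value was 0.443.

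Adamts2 and its substrate Col1a1 had r = 0.942 in control (permutation p = 2e-05, adjusted 0.00012, rho = 0.902, p = 0.00018, adjusted 0.00072) and r = 0.862 in MCD (permutation p = 0.00029, adjusted 0.000696, rho = 0.818, p = 0.00176, adjusted 0.00352), and 0.921 and 0.784 without the 2 farthest libraries. Timp1 and Col1a1 had r = 0.824 in control (permutation p = 0.00123, adjusted 0.00211, rho = 0.825, p = 0.00152, adjusted 0.00352) and r = 0.853 in MCD (permutation p = 0.00055, adjusted 0.0011, rho = 0.811, p = 0.00233, adjusted 0.00399), and 0.742 and 0.836 without them. Mmp12 and the macrophage marker Cd68 had r = 0.676 in control (permutation p = 0.0175, adjusted 0.0210, rho = 0.727, p = 0.00978, adjusted 0.0147) and r = 0.921 in MCD (permutation p = 5e-05, adjusted 0.00015, rho = 0.916, p = 9e-05, adjusted 0.00054). Without the 2 farthest libraries the MCD value was 0.839, and the control value was 0.528 and no longer passed (adjusted permutation p = 0.139). Mmp7 and the bile duct keratin Krt19 had r = 0.704 in control (permutation p = 0.00883, adjusted 0.0118, rho = 0.678, p = 0.0190, adjusted 0.0229) and r = 0.441 in MCD (permutation p = 0.150, adjusted 0.150, rho = 0.559, p = 0.0632, adjusted 0.0632). The control relation was 0.651 without the 2 farthest libraries and no longer passed (adjusted permutation p = 0.0674), and most control libraries held 10 or fewer Mmp7 reads. Both genes of each pair come from the same library, so they share its cell composition and scaling, and whether a relation differs between the diets was not tested.

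**Figure D5:**
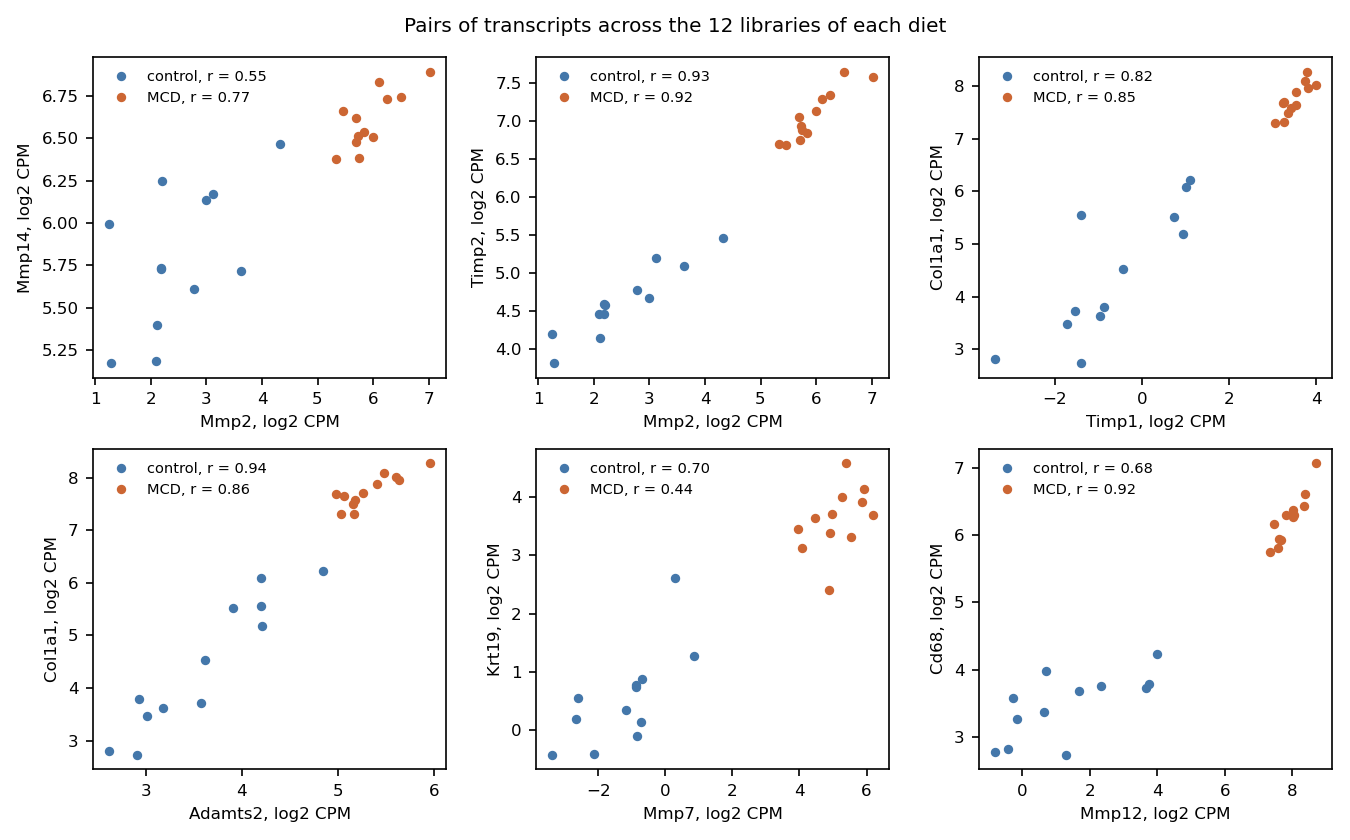
Pairs of transcripts across the 12 control libraries (blue) and 12 MCD libraries (orange), as log2 CPM with a prior count of 2 on both axes, with Pearson r for each diet in the legend. Mmp2 with Timp2 and Adamts2 with Col1a1 lie close to a line within both diets, while Mmp7 with Krt19 scatters in MCD.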

How the data were processed

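Whole-liver poly(A) RNA-Seq of 24 mice was analysed. The authors deposited raw read counts per Ensembl gene, 1 column for each library, without normalization. The submitters' processing notes name STAR 2.7.3a and mm10, and the methods name the exon quantification pipeline and PISCES for reads aligned to a human reference. The counting program, annotation and use of strand for the mouse libraries are not given in the sources used here. Symbols, positions, overlaps and lengths came from GENCODE release M21, which named 51745 of 56205 rows, and the rows it did not name held 0.0808% of counts. Promoters came from RefSeq (GRCm38.p6), which held 53 of the 84 members. The plan had foreseen protein motifs, but ADAM members were divided by textbook knowledge instead, and protein sequences were not used here.

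In R 4.3.3 genes were kept with filterByExpr by diet, libraries were scaled with TMM, and edgeR 4.0.16 (glmQLFit, glmQLFTest) compared MCD with control over 24 libraries without covariates, with Benjamini-Hochberg adjustment over 14109 genes. SEs are the absolute log2 fold change over the square root of F. Total counts ran from 16388650 to 24915175, and the floor of 3 counts covers counting error only. Separate animals are stated only for the series as a whole, so p-values measure the spread between these libraries. In the most similar pair of libraries, counts varied 11.4 times as much as sampling noise alone would give.

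Values were named for every tested MMP and TIMP and for other members past the threshold with an absolute log2 fold change above 1, and list genes up to 4 each way. Members outside that rule, such as Adam10 and Adam17, and Reck, Furin, Plg, Rhbdf1 and Rhbdf2 were named after their values were seen. Members, lists and tests were chosen with earlier results of these data known. Alternatives were other scalings (relative log expression, upper quartile, total counts), omitting or tightening the count filter, DESeq2 1.42.0, limma-voom (limma 3.58.1), the replicate number as a block, a numeric sex-linked score, other thresholds and leaving out each library. The fit was tested on simulated counts. Permutations used numpy 2.4.6 and scipy 1.17.1, tables pandas 2.3.3 and figures matplotlib 3.10.9. 1 list gene is not reported here by name.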

Additional observations from a re-analysis of the deposited data

How the results depend on the processing

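Of 32 members past the threshold, 26 kept their call under every alternative in which they were tested, and Adam9, Adamts14, Adamts7, Mmp19, Mmp15 and Mmp14 did not reach a log2 limit of 1. Of the 14 members not past it, only 3 were the same in call and sign under every alternative. Leaving out 1 library at a time gave 29 to 30 members higher and 3 to 4 lower, 2701 to 3052 of all genes higher and 2228 to 2812 lower, and 12 to 17 genes of the pathway lists lower. Total counts alone moved the median of all genes by 0.37 on the log2 scale and gave 4539 genes higher and 848 lower (84.3% of calls higher, 50.2% with TMM), 5 list genes lower and 36 members higher and 2 lower; Adam9 was then not past the threshold (-0.32), while Adam10, Adam17, Adam19, Adamtsl3, Mmp27, Mmp17 and Mmp28 were. Upper-quartile factors moved it by 0.15 and gave 1710 genes lower (65.6% higher) and 9 list genes lower. Requiring at least 10 counts in every library left 26 members, 16 of them higher, with 1801 of 11717 genes higher and 10 list genes lower. Testing without the filter covered 68 members, 35 of them higher and 3 lower, and 27553 genes, of which 3709 were higher and 2650 lower. With an FDR limit of 0.05 and any fold change there were 34 members higher and 4 lower, and 3742 genes higher and 5221 lower (41.7% of calls higher). A log2 limit of 1 gave 1 member (Adamts13), 686 genes and 2 list genes lower (73.1% of calls higher). Adam11 turned positive with total counts alone (0.034), and Adamts1 with upper-quartile factors (0.049), total counts alone (0.228) and over the libraries left out (-0.138 to 0.013, positive without MCD replicate 2). Adamts6 ran from -0.022 to 0.119 and was negative without control replicate 8, 10 or 12. Mmp28 passed with upper-quartile factors, DESeq2, and without control replicate 5 or MCD replicate 3, and Adam23 without MCD replicate 9 (-0.55). Mmp2 with Mmp14 in control passed with total counts alone (r = 0.631). Under that scaling Mmp7 with Krt19 in MCD passed by rho (0.622, adjusted permutation p = 0.0382) but not by r (0.5, adjusted permutation p = 0.0973). Without the 2 farthest libraries Mmp2 with Mmp14 in MCD (0.585), Mmp7 with Krt19 in control (0.651) and Mmp12 with Cd68 in control (0.528) did not pass. The cause was not tested, except that the stricter filter tests fewer genes. The diets share replicate numbers whose meaning the labels do not give, and for that reason the numbers were not taken as a pairing. Same-numbered libraries deviated together in 8 of 12 pairs (correlation over 0.1, median 0.233, range -0.28 to 0.349). Differently numbered pairs were not compared with them, so these values cannot decide whether the numbers mark a shared source. A fit with the replicate block gave 29 members higher and 3 lower, and 2781 genes higher and 2430 lower. Control levels of Mmp7, Mmp13, Timp1 and Adamts4 rest on 55 to 174 reads over the 12 libraries, which limits the precision of their fold changes.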
